A study of Mus musculus with 4 samples.

Results

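The genes described here encode the TGF beta ligands, their receptors and the proteins that hold or release the latent ligand in the matrix of dermal white adipose tissue (dWAT), the fat layer around the lower ends of the hair follicles (HFs). They were the ligands Tgfb1, Tgfb2 and Tgfb3, the receptors Tgfbr1 and Tgfbr2, the latent TGF beta binding proteins Ltbp1, Ltbp2 and Ltbp4, and the thrombospondin Thbs1. These 9 genes of the 22913 genes listed were listed by function and name, with earlier results of these data known, and no value entered the rule by which they were chosen. RNA sequencing was done on dWAT microdissected from skin of C57BL/6 mice in 4 groups, with 1 library each. OTD was from old mice (18 months) and YTD from young mice (2 months), both in telogen, the resting phase of the hair cycle. OAD was from old mice (18 months) and YAD from young mice (2 months), both in anagen, the growth phase, which had been induced by depilation, so the phase and the depilation cannot be told apart. The labels list no transgene, deleted gene or drug for any group, and the tissue came from several mice per group. The age field of the labels gave 18 months for YTD and 2 months for OAD, against the titles of the same samples, and the titles were used.

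TGF beta is secreted in a latent form. The mature dimer stays wrapped in its own propeptide, and a latent TGF beta binding protein ties this complex to fibrillin and fibronectin in the matrix. Integrins, proteases and thrombospondin 1 can free the ligand, which then binds the type II receptor, Tgfbr2. This receptor recruits and phosphorylates the type I receptor, Tgfbr1, which in turn phosphorylates SMAD proteins. In skin the pathway is known for driving matrix production by fibroblasts, for restraining keratinocyte growth and for its part in the hair cycle, and in fat for opposing adipocyte differentiation.

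Values were FPKM, the fragments mapped to a gene divided by its length and by the depth of the library. The lengths were taken as coding lengths and the tool that made the FPKM is not given, so levels compare only roughly between genes. With 1 library per group no spread between mice or libraries was known and no test between groups was made. A difference is given as the first minus the second value of log2(FPKM + 1), which understates differences of low genes, and a gene was counted as higher or lower when this was at least 1 in size. Intervals of 95% beside a fold are exact binomial (Clopper-Pearson) intervals on estimated fragments and cover counting error only. The estimated depth was 18800000 to 24300000 fragments per library, a rough reading from the lowest values. The markers of the labelled tissue were present, with Cfd, the adipocyte gene for adipsin, at 671 to 3401 FPKM. Other cells were present as well. Genes encoded by the mitochondrial genome held 44.7% to 52.7% of the summed FPKM in telogen and 14.4% to 18.3% in anagen, 10 skeletal muscle markers summed to 51932 and 81380 in telogen and 9501 and 12913 in anagen, and 9 hair matrix and shaft markers summed to 110 and 198 in telogen and 8106 and 9702 in anagen. In whole tissue, fewer cells of a type and less RNA per cell cannot be told apart.

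The promoters of Tgfb1, Tgfb2 and Ltbp1 are shown because these genes had the most level profile of the ligands, a lower level in anagen, and the largest log2(FPKM + 1) difference between ages of the binding proteins in anagen. They are the 250 bases before the gene start of RefSeq on GRCm38.p6, in the direction of transcription. Capitals mark each match on either strand to a GC box, a TATA box, an E-box or a cAMP response element.
Tgfb1, chr7:25686752-25687001, plus strand: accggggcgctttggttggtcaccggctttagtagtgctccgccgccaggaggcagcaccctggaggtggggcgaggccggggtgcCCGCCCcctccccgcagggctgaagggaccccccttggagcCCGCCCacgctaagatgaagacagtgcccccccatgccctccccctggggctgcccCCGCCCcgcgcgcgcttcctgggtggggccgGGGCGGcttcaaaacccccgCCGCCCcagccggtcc
Tgfb2, chr1:186705990-186706239, minus strand: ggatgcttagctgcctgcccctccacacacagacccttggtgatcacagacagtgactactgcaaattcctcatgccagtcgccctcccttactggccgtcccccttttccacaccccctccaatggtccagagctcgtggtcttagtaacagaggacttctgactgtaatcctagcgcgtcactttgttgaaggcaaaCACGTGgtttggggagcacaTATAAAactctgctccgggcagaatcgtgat
Ltbp1, chr17:75005279-75005528, plus strand: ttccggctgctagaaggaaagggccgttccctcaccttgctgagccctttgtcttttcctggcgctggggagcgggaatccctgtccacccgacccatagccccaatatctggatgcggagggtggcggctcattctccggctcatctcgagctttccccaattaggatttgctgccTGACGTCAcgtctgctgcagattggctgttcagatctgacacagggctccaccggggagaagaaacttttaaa

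The Tgfb1 promoter held 5 GC boxes (GGGCGG), at 164, 123, 67, 36 and 16 bases before the start, and no TATA box. Its GC content was 75.2%, against a median of 52.4% over 32851 mouse promoters, of which 32.7% held a GC box. The Tgfb2 promoter held a TATA box (TATAAA) 31 bases before the start, a motif found in 12.4% of promoters. An E-box (CACGTG), found in 6.02% of promoters, lay 51 bases before the start, and the GC content was 53.6%. The Ltbp1 promoter shown held the full cAMP response element (TGACGTCA) 73 bases before its start, found in 1.55% of promoters, and the promoter of the second Ltbp1 entry held none. In all, 7 of the 9 genes had a promoter entry, with 11 entries between them, and Tgfb3 and Thbs1 had none. None of the 11 held an AP-1 site (TGANTCA, in 6.75% of promoters) or a CArG box (in 1.47%). A match is a stretch of letters and not a measured binding site.

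Tgfb1 had nearly the same level in each library on the deposited scale. This gene (ENSMUSG00000002603, chr7:25687002-25705077, plus strand) encodes the isoform most widely made by immune, vascular and stromal cells. Its FPKM was 13.1 in YTD, 14.8 in OTD, 12.6 in YAD and 13.2 in OAD, so the highest library was 1.17 times the lowest. The old-to-young fold was 1.13 in telogen (counting interval 0.963 to 1.33) and 1.05 in anagen (0.903 to 1.21), and both intervals included no difference. In TPM (values rescaled to the same sum in each library) Tgfb1 was higher in anagen than telogen. The difference was 0.73 in young and 0.42 in old mice on the log2 scale, where the medians of all genes were 0.45 and 0.32. Once genes below 1 FPKM in both libraries were left out, the medians were 0.76 and 0.58. Tgfb1 lay below this second median at each age.

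Tgfb2 was a low gene whose level differed between phases of the hair cycle more than between ages. It lies at chr1:186622792-186705989 on the minus strand (ENSMUSG00000039239) and encodes the isoform known in skin from hair follicle and mesenchymal cells. Its FPKM was 4.69 in YTD, 4.45 in OTD, 1.60 in YAD and 1.47 in OAD. Both telogen libraries lay above both anagen libraries. Anagen was 2.93-fold lower than telogen in young mice (counting interval 2.09 to 4.14) and 3.04-fold lower in old mice (2.17 to 4.39). Between ages the old-to-young fold was 0.949 in telogen (0.733 to 1.24) and 0.917 in anagen (0.60 to 1.38).

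Tgfb3 was the other ligand with a lower level in anagen. This gene (ENSMUSG00000021253, chr12:86056744-86079041, minus strand) encodes an isoform known from mesenchymal tissue and from palate and skin repair. Its FPKM was 14.0 in YTD, 15.7 in OTD, 2.73 in YAD and 3.91 in OAD. The telogen levels were close to those of Tgfb1, whereas the anagen levels were several-fold below them. Anagen was 5.14-fold lower in young mice (counting interval 4.02 to 6.64) and 4.03-fold lower in old mice (3.27 to 5.01). In anagen the old library was 1.43-fold higher than the young one (1.07 to 1.92), and in telogen 1.12-fold higher (0.965 to 1.30).

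The make-up of the ligands therefore differed between phases, and this does not depend on how libraries are scaled. Tgfb1 held 42.3% of the summed FPKM of the 3 ligands in OTD and 41.2% in YTD, against 71.1% in OAD and 74.5% in YAD. Tgfb3 held 45.0% and 44.1% in telogen and 21.0% and 16.1% in anagen, in the same order. Tgfb2 held 7.89% to 14.7% of the sum. The ratio of Tgfb1 to Tgfb3 was 0.942 in OTD (counting interval 0.813 to 1.09) and 0.936 in YTD (0.797 to 1.10). It was 3.38 in OAD (2.75 to 4.21) and 4.63 in YAD (3.63 to 5.97), so the intervals of the phases did not meet, while within each phase those of the ages overlapped.

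**Figure D1:**
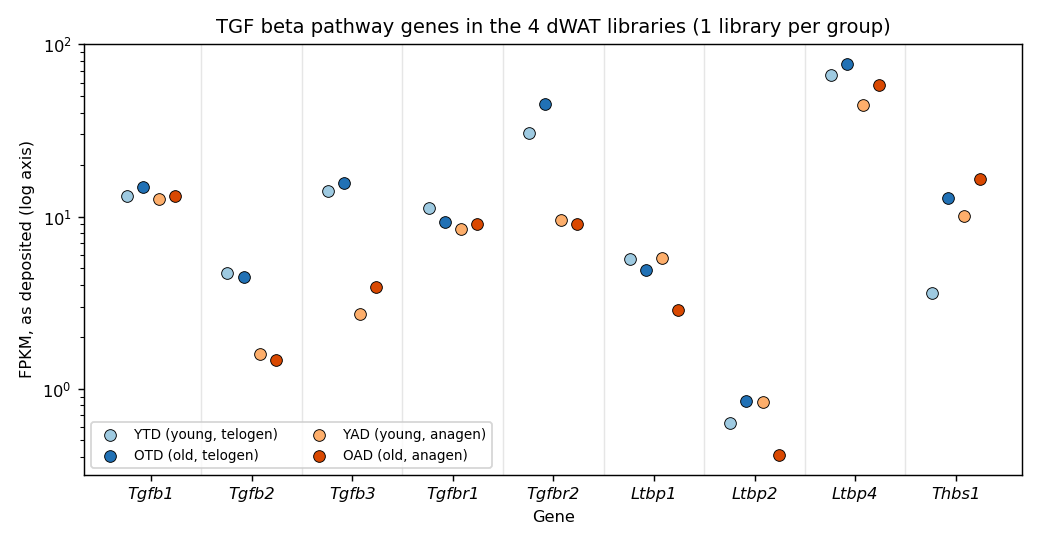
FPKM of the 9 genes (log axis) in the 4 libraries, 1 point per library, with no error because each group had 1 library. Tgfb1 and Tgfbr1 lie nearly level on this deposited scale, though in TPM they are higher in anagen, and both telogen points of Tgfb2, Tgfb3 and Tgfbr2 lie above both anagen points. Thbs1 is lowest in YTD, at 3.59.

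Tgfbr1, the kinase that passes the signal to SMAD proteins (ENSMUSG00000007613, chr4:47353222-47414931, plus strand), had an FPKM of 11.2 in YTD, 9.31 in OTD, 8.50 in YAD and 9.03 in OAD. These levels spanned a narrow range as deposited, with anagen minus telogen differences of -0.36 in young and -0.04 in old mice, which in TPM turned to 0.41 and 0.52. The differences between ages were -0.24 in telogen and 0.08 in anagen on the log2(FPKM + 1) scale.

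Tgfbr2, the receptor that first binds the ligand (ENSMUSG00000032440, chr9:116087698-116175363, minus strand), differed far more. Its FPKM was 30.5 in YTD, 45.2 in OTD, 9.55 in YAD and 9.02 in OAD. The old library was 1.48-fold higher in telogen (counting interval 1.37 to 1.61), and in anagen the old-to-young fold was 0.944 (0.820 to 1.09). Anagen was 3.19-fold lower than telogen in young mice (2.85 to 3.60) and 5.02-fold lower in old mice (4.49 to 5.62), the latter a difference of -2.21 that ranked 394 from the lowest among 17712 genes.

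Set against each other within a library, the receptors were near parity in anagen and not in telogen. The ratio of Tgfbr2 to Tgfbr1 was 4.86 in OTD (counting interval 4.27 to 5.53) and 2.73 in YTD (2.40 to 3.10). It was 0.999 in OAD (0.860 to 1.16) and 1.12 in YAD (0.966 to 1.31). The intervals of OTD and YTD did not meet, and those of the anagen libraries overlapped. Blood endothelial cells express Tgfbr2 strongly, and the 10 endothelial markers were, like this gene, higher in telogen than in anagen and higher in OTD than in YTD, with a summed FPKM of 391 in YTD, 610 in OTD, 113 in YAD and 153 in OAD. All 10 were higher in old than young dWAT in both phases, led in level by Egfl7 at 143 in OTD and 104 in YTD. Tgfbr2 itself was not higher in OAD than in YAD. In young mice 12 of 12 adipocyte, 9 of 10 fibroblast and 9 of 10 macrophage markers were also lower in anagen. In old mice 12, 9 and 10 were. In telogen 7, 9 and 9 of them were higher in OTD than YTD, and in anagen 12, 3 and 0 were higher in OAD than YAD. The part of any of these cells in the level of Tgfbr2 was not tested.

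**Figure D2:**
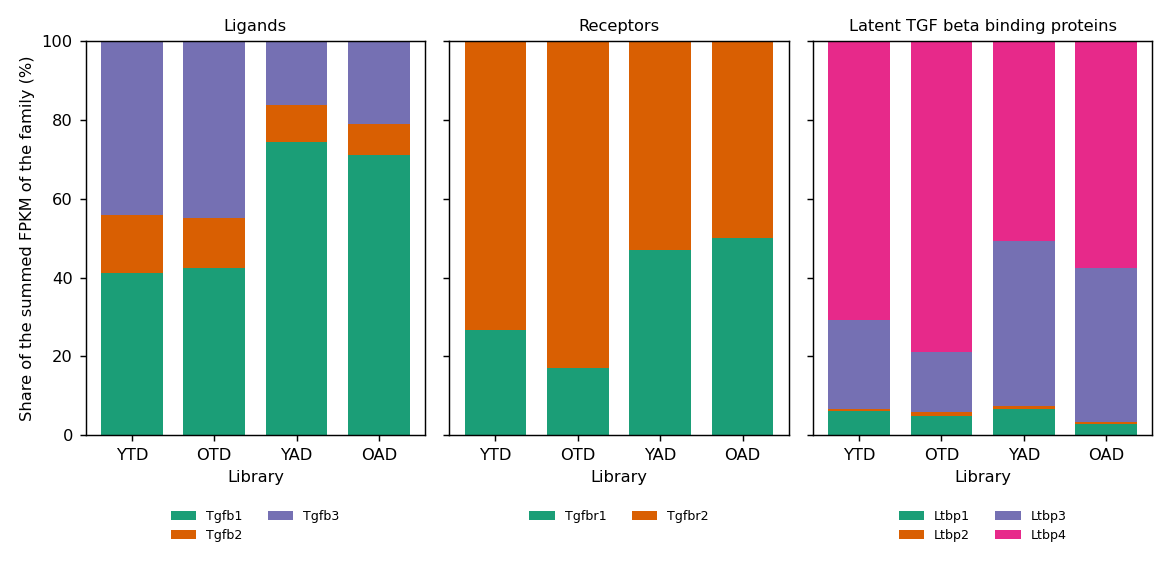
Share of the summed FPKM (%) held by each ligand, receptor and latent TGF beta binding protein within each library, which no scaling between libraries alters. The share of Tgfb1 among the ligands is 41.2% to 42.3% in telogen and 71.1% to 74.5% in anagen, and Ltbp4 holds the largest share of the binding proteins in all 4 libraries.

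Of the latent TGF beta binding proteins, Ltbp4 was the most abundant. It lies at chr7:27305136-27337692 on the minus strand (ENSMUSG00000040488) and encodes the member needed for elastic fibre assembly. Its FPKM was 66.1 in YTD, 77.4 in OTD, 44.3 in YAD and 58.1 in OAD. The old library was the higher in both phases, by 1.17-fold in telogen (counting interval 1.13 to 1.21) and 1.31-fold in anagen (1.26 to 1.36).

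Ltbp1, which binds the small latent complex of each ligand (ENSMUSG00000001870, chr17:75005568-75391767, plus strand), had a low level that was lowest in OAD on the deposited scale. Its FPKM was 5.67 in YTD, 4.89 in OTD, 5.72 in YAD and 2.86 in OAD. OAD lay below the other 3 libraries, at 2.00-fold less than YAD (counting interval 1.76 to 2.28). This difference of -0.80 ranked 163 from the lowest among 17613 genes. In telogen the difference was -0.18, or 1.16-fold lower in OTD (1.03 to 1.31), and it turned to 0.01 when mitochondrial genes were left out of the scaling. In TPM the anagen minus telogen difference was 0.74 in young and -0.12 in old mice, against 0.01 and -0.61 as deposited, so that OAD was then near the telogen libraries and YAD above them.

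Ltbp2, a matrix protein of this family that is known not to bind the latent ligand (ENSMUSG00000002020, chr12:84783212-84876532, minus strand), was the lowest of the 9 genes. Its FPKM was 0.632 in YTD, 0.853 in OTD, 0.839 in YAD and 0.410 in OAD. Like Ltbp1 it was lowest in OAD, 2.05-fold below YAD (counting interval 1.46 to 2.88). Between the telogen libraries the old-to-young fold was 1.35 (0.962 to 1.87).

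Ltbp4 and Ltbp1 thus stood in different proportion in each library. The ratio of Ltbp4 to Ltbp1 was 15.8 in OTD (counting interval 14.5 to 17.4) and 11.7 in YTD (10.7 to 12.7). It was 20.3 in OAD (18.2 to 22.6) and 7.75 in YAD (7.16 to 8.40), so old dWAT had the higher ratio in both phases. Ltbp3, the remaining family member, had an FPKM of 20.9 in YTD, 15.1 in OTD, 36.4 in YAD and 39.4 in OAD. Its share of the 4 family members was 22.4% in YTD, 15.4% in OTD, 41.7% in YAD and 39.1% in OAD, while that of Ltbp4 was 70.8%, 78.8%, 50.8% and 57.7% in the same order. Fibroblast and fat progenitor markers were also lower in OAD than YAD in 7 of 10 cases, with a median difference of -0.42 and summed FPKM of 200 and 234. The highest in level, Ly6a, went the other way, at 73.3 in OAD and 65.8 in YAD. In telogen they were higher in OTD in 9 of 10 cases, with a median of 0.47. The part of either kind of cell in the levels of Ltbp1 and Ltbp2 was not tested.

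Thbs1, a secreted glycoprotein that can activate latent TGF beta (ENSMUSG00000040152, chr2:118111876-118127133, plus strand), had the largest difference between ages of the 9 genes in telogen. Its FPKM was 3.59 in YTD, 12.7 in OTD, 10.02 in YAD and 16.5 in OAD. YTD lay well below the other 3 libraries. OTD was 3.55-fold higher than YTD (counting interval 3.07 to 4.11), and this difference of 1.58 ranked 62 from the highest among 17230 genes. OAD was 1.65-fold higher than YAD (1.51 to 1.80), a difference of 0.67 that ranked 373 from the highest among 17613 genes. In young mice anagen was 2.79-fold higher than telogen (2.41 to 3.23), and in old mice 1.30-fold higher (1.19 to 1.41). These differences of 1.26 and 0.35 became 1.99 and 0.93 in TPM, and the old one 0.09 without mitochondrial and muscle genes.

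Thbs1 is also an early response gene and a platelet protein, so both kinds of gene were looked at beside it. All 12 immediate early genes were higher in OTD than YTD, 10 of them by at least 1, with a median difference of 1.69. Of all genes, 1.67% were higher by at least 1. Fosb, which encodes a subunit of the AP-1 factor, was at 22.5 FPKM in OTD and 0.513 in YTD, and Btg2, an antiproliferative early gene, was at 70.0 and 15.7. In anagen 11 of 12 were higher in OAD than YAD, 2 of them by at least 1, with a median of 0.44, and the stress factor Atf3 was at 8.47 and 2.60. The share of all genes higher by at least 1 in old anagen dWAT was 0.727%. Between phases 3 of the 12 early genes were higher and 3 lower by at least 1 in young mice, and 0 higher and 7 lower in old mice. Of all genes 16.1% were higher at each age, and 16.7% were lower in young and 15.6% in old mice. The 6 platelet markers summed to 65.9 in YTD, 75.1 in OTD, 16.3 in YAD and 11.7 in OAD, with Pf4 at 8.84 to 72.3 and Itga2b at 0.824 to 1.83, higher in anagen. The 10 macrophage markers summed to 503 in YTD, 822 in OTD, 136 in YAD and 106 in OAD, led by Lyz2. The 12 immediate early genes summed to 315 in YTD, 996 in OTD, 462 in YAD and 589 in OAD. The part of early response, platelet and macrophage genes in the Thbs1 levels was not tested.

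**Figure D3:**
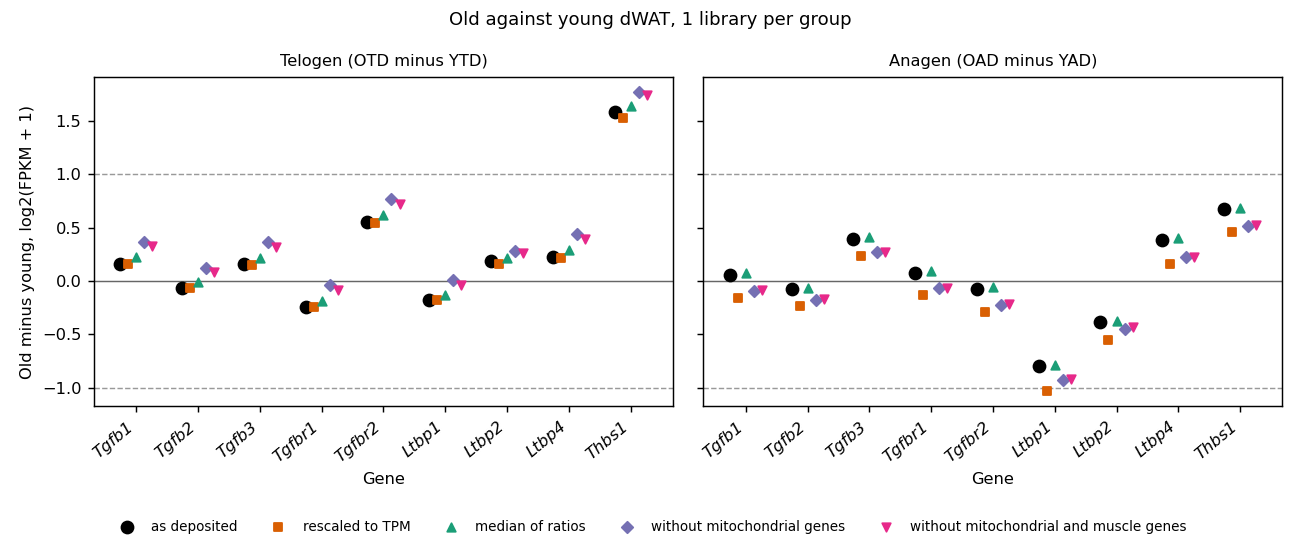
Old minus young difference of log2(FPKM + 1) for the 9 genes in telogen (left) and anagen (right), with the deposited scale in black and 4 other scalings in colour. Dashed lines mark differences of 1 and -1. Thbs1 lies above 1 in telogen under each scaling, Ltbp1 passes -1 in anagen in TPM alone, and the sign turns with the scaling for Tgfb2 and Ltbp1 in telogen and for Tgfb1 and Tgfbr1 in anagen.

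Between ages in telogen, 1 of the 9 genes, Thbs1, was higher by at least 1 and 0 were lower, beside 1.67% and 1.93% of 17230 genes. The median difference of the 9 genes was 0.16, beside -0.03 over all genes. Between ages in anagen, 0 of the 9 passed in either direction, where 0.727% of 17613 genes were higher and 0.454% lower. The median of the 9 was 0.06, beside 0 over all genes, and it turned to -0.16 in TPM, where the median of all genes was also -0.16. Without mitochondrial genes it was -0.09, beside -0.10 over all genes. Without mitochondrial and skeletal muscle genes it was also -0.09, beside -0.10. The sign of the difference between ages turned with the scaling for Tgfb2 and Ltbp1 in telogen and for Tgfb1 and Tgfbr1 in anagen.

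Between phases in young mice, Tgfb2, Tgfb3 and Tgfbr2 were lower in anagen by at least 1 and Thbs1 was higher, so 3 of 9 were lower and 1 higher. Over 17622 genes the shares were 16.7% lower and 16.1% higher. The median of the 9 was -0.36, beside 0.02 over all genes. In old mice the same 3 genes were lower and 0 of 9 were higher, where 15.6% of 17712 genes were lower and 16.1% higher, and the median was -0.41, beside 0.01. These comparisons share libraries with those between ages and are not independent of them. In TPM the median of all genes was 0.45 in young and 0.32 in old mice. The young differences of Tgfb2, Tgfb3 and Tgfbr2 in TPM were -0.53, -1.31 and -0.79, so that Tgfb2 and Tgfbr2 no longer passed 1. Without mitochondrial genes the young difference of Tgfb2 was -0.97 and did not pass 1. In old mice Tgfb2 no longer passed either, at -0.70 in TPM, while Tgfb3 and Tgfbr2 did, at -1.23 and -1.62. The signs for Tgfb1, Tgfbr1 and Ltbp4 between phases turned with the scaling.

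**Figure D4:**
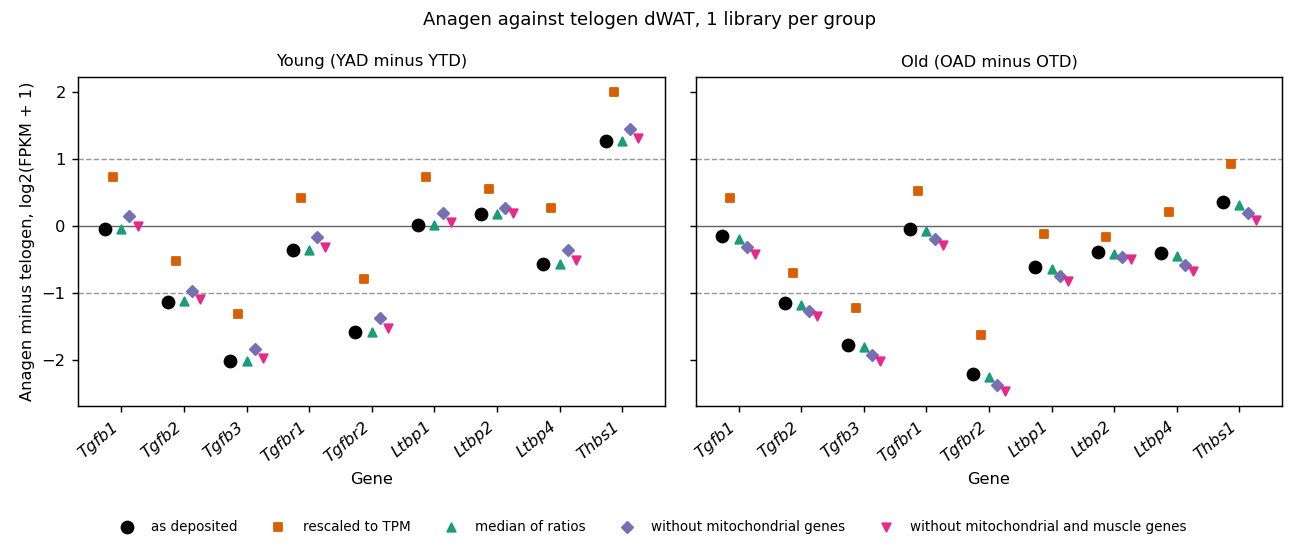
Anagen minus telogen difference of log2(FPKM + 1) for the 9 genes in young (left) and old mice (right), with the deposited scale in black and 4 other scalings in colour. Tgfb2, Tgfb3 and Tgfbr2 lie below 0 under each scaling in both ages, whereas TPM moves Tgfb1, Tgfbr1 and Ltbp4 from below to above 0.

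The wider pathway was read from lists of its other genes. Old dWAT in telogen had the higher value for 13 of 22 other latency and activation genes and the lower for 9, with a median difference of 0.26. Of these 1 passed, beside 1.67% of all genes higher by at least 1. This was Lrrc32, at 23.2 FPKM in OTD and 10.4 in YTD (2.24-fold, counting interval 1.99 to 2.53). It encodes GARP, which tethers latent TGF beta to the cell surface, and its level was 5.49 in OAD and 3.51 in YAD. In anagen 7 of the 22 were higher and 15 lower in old mice, 0 by 1 or more, with a median of -0.07. Between phases 1 of the 22, Ltbp3, was higher in anagen by at least 1 in old mice and 0 in young mice, beside 16.1% of all genes at each age. Lower by at least 1 were 7 of the 22 in young and 9 in old mice. The shares lower were 16.7% and 15.6% of all genes, or 21.4% and 19.9% of those with an FPKM of at least 1 in either library. Among the lower genes was Tgm2, a transglutaminase that crosslinks the latent complex to matrix. It went from 176 to 28.3 FPKM in young and from 122 to 34.7 in old mice. The integrin genes Itgb6 and Itgb1 went from 11.2 to 1.92 and from 136 to 40.2 in young mice, and from 6.32 to 1.74 and from 122 to 37.2 in old mice. In old mice the protease gene Mmp2 went from 56.2 to 9.71 and Nrros, which anchors latent TGF beta on macrophages, from 9.69 to 2.02. In young mice Mmp2 went from 32.1 to 14.9 and Nrros from 7.03 to 2.45.

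Matrix proteins and co-receptors that bind the ligands were higher in OTD than YTD in 8 of 8 cases, with a median of 0.60 that ranged from 0.57 to 0.79 over the other scalings. Dcn, the proteoglycan decorin, was at 599 FPKM in OTD and 230 in YTD, a 2.61-fold difference (counting interval 2.52 to 2.70). In anagen 4 were higher and 4 lower in old mice, and Dcn was at 85.8 in OAD and 107 in YAD. Between phases 4 of the 8 were lower by at least 1 in young and 6 in old mice, beside 16.7% and 15.6% of all genes. The small proteoglycan gene Aspn went from 25.6 to 5.59 FPKM in young and from 36.8 to 2.82 in old mice, and the co-receptor gene Tgfbr3 from 16.7 to 5.58 and from 22.9 to 4.86. Bgn, the proteoglycan biglycan, went from 201 to 54.9 in old mice and from 116 to 64.2 in young mice. Cd109 and Vasn, which encode an inhibitory co-receptor and a ligand-binding membrane protein, were the ones higher in anagen than telogen, with Cd109 at 7.22 against 1.14 and Vasn at 15.1 against 5.02 in young mice. In old mice Cd109 was at 8.75 against 1.94 and Vasn at 19.7 against 9.15.

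The 8 genes that carry the signal to the nucleus were split in telogen, as 4 had the higher value in old mice and 4 the lower, and 0 differed by 1 or more. Between phases 4 of the 8 were lower in anagen by at least 1 in young mice and 1 in old mice. The shares were 16.7% and 15.6% of all genes, or 21.4% and 19.9% of those with an FPKM of at least 1 in either library. Acvrl1, an endothelial type I receptor, went from 18.3 to 6.39 FPKM between telogen and anagen in young mice and from 28.5 to 6.28 in old mice. Smad3, the receptor-activated SMAD, was at 18.3 in YTD and at 6.92 to 8.81 in the other libraries. In young mice Zfyve9, which presents SMAD proteins to the receptor, went from 20.6 to 8.31, and Tgfb1i1, a focal adhesion adaptor gene, from 18.1 to 8.02. In old mice Zfyve9 went from 14.0 to 8.10 and Tgfb1i1 from 19.6 to 9.48. Among 10 inhibitors and feedback genes, 0 passed 1 between ages. Between phases 2 were higher in anagen by at least 1 at each age, Bambi and Smad7, and 1 was lower in young mice, the phosphatase gene Ppm1a. Of all genes 16.1% were higher at each age, and 16.7% were lower in young mice. Ppm1a went from 86.8 to 35.2 FPKM in young and from 65.1 to 39.8 in old mice. Bambi, a decoy receptor, was at 2.38 FPKM in YTD and 30.4 in YAD, and at 3.33 in OTD and 32.1 in OAD. Smad7, the inhibitory SMAD, was at 4.69 and 20.1 in young and 6.28 and 23.6 in old mice. All 8 keratinocyte markers were higher in anagen in both ages, with sums of 117 in YTD, 72.6 in OTD, 1986 in YAD and 2682 in OAD, and their part in these levels was not tested.

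Genes commonly used as TGF beta targets were mostly higher in old dWAT in telogen, 19 of 24, with 7 past 1 and a median of 0.48 (0.45 to 0.65 over the other scalings). Of all genes, 1.67% were higher by at least 1. Ccn2, a matricellular growth factor, was at 28.4 FPKM in OTD and 10.2 in YTD, a 2.78-fold difference (2.36 to 3.27). Comp and Timp1, a cartilage matrix protein and a metalloproteinase inhibitor, were at 5.74 and 15.2 in OTD and at 1.41 and 6.14 in YTD. Many of these genes also answer other signals, and the early response, fibroblast and macrophage genes given above were higher in the same library. Their part in the target levels was not tested.

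In anagen the targets were 9 higher and 15 lower in old mice, with a median of -0.06. The 3 that passed 1, all lower, were fibrillar collagens, where 0.454% of all genes were lower by at least 1. Col1a1 was at 16.5 FPKM in OAD and 64.4 in YAD, Col1a2 at 21.7 and 78.3, and Col3a1 at 33.5 and 95.6. In telogen, in OTD and YTD, Col1a1 was at 94.5 and 133 (1.41-fold lower, counting interval 1.37 to 1.45), Col1a2 at 177 and 175 and Col3a1 at 226 and 227. The collagens were thus lower in the same library in which Ltbp1 and Ltbp2 were lowest, while Ccn2, at 19.9 in OAD and 14.4 in YAD, was not. Between phases, 7 of the 24 targets were lower by at least 1 in young and 15 in old mice. The shares lower were 16.7% and 15.6% of all genes, or 21.4% and 19.9% of those with an FPKM of at least 1 in either library. In the other direction, 4 targets were higher by at least 1 in young and 3 in old mice. The share higher was 16.1% of all genes at each age. Tgfbi, a TGF beta induced matrix protein, went from 39.0 to 5.34 and from 58.8 to 5.12. In young mice the matrix gene Cilp went from 47.7 to 7.98. Cdkn2b, a cell cycle inhibitor, was higher in young anagen, at 14.4 against 2.96, and Snai2, a transcription factor gene, at 8.05 against 1.83. In old mice Cilp went from 31.0 to 5.42, Cdkn2b was at 19.985 in anagen against 2.60, and Snai2 at 8.56 against 3.04.

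**Figure D5:**
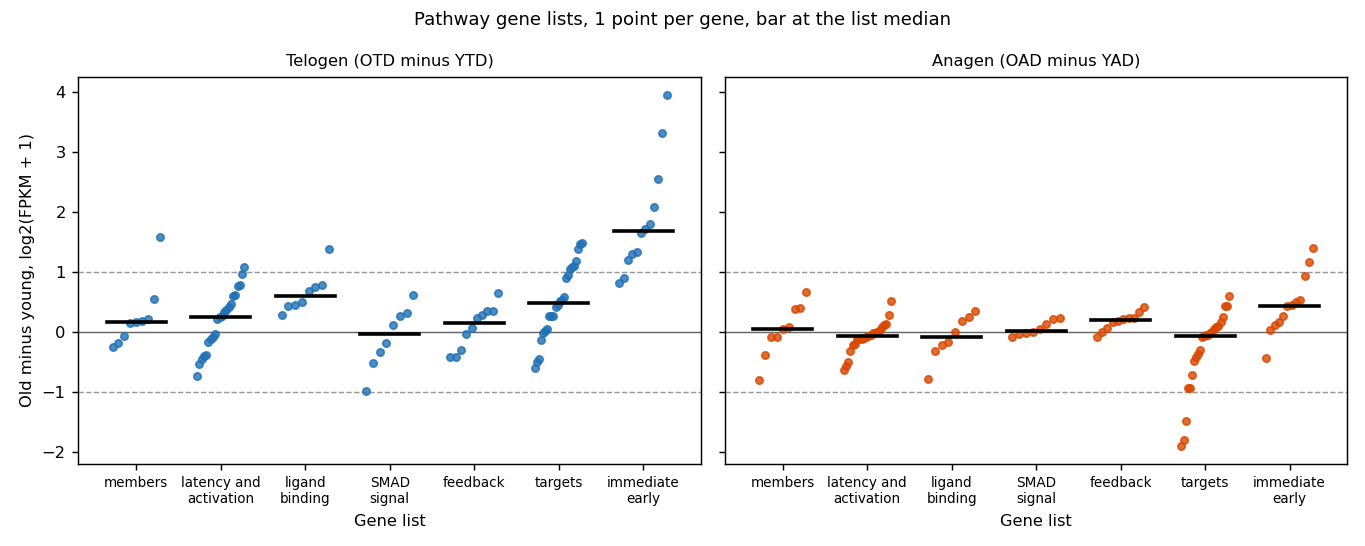
Old minus young difference of log2(FPKM + 1) in telogen (left) and anagen (right) for the 9 genes and for each pathway list, 1 point per gene, with a bar at the median. In telogen the medians of ligand-binding genes, targets and immediate early genes are 0.60, 0.48 and 1.69, and in anagen -0.08, -0.06 and 0.44, where 3 fibrillar collagens lie lowest among the targets.

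The profiles of 4 members over the 4 libraries were set against 13560 genes by the Euclidean distance of log2(FPKM + 1), centred on each gene's mean. Tgfb1 was nearest to Akap11 (0.013) and Togaram1 (0.019), and 721 genes lay within 0.25, as its level profile was a common one. Tgfb2 was nearest to Rras2 (0.027) and Ipp (0.043), with 309 genes within 0.25. Tgfb3 was nearest to Nr3c2 (0.039), the mineralocorticoid receptor gene, and Chst1 (0.046), with 73. Thbs1 had 0 genes within 0.25. Its nearest was Klf4 (0.363), a transcription factor gene with an FPKM of 21.4 in YTD, 60.8 in OTD, 57.8 in YAD and 65.4 in OAD, and next came Id4 (0.417), lowest in YTD as well, at 6.57.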

How the data were processed

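FPKM of 22913 genes on GRCm38 were deposited for each of the 4 dWAT libraries, 1 per group. The labels name bcl2fastq and TopHat2; the tool that made the FPKM, the annotation and any scaling between libraries are not given in the sources used here. Of the listed lengths, 97.0% are multiples of 3, so they were taken as coding lengths. Symbols were matched for 21750 of 22166 Ensembl identifiers. A pseudocount of 1 was used, and genes at 0 in both libraries left out of a comparison. Depth was read from the lowest FPKM of features of 2000 to 20000 bp; all 9 genes were above the value of 3 fragments. The steps were tested on simulated data. The 9 genes and all lists were chosen with earlier results of these data known. Of each pathway list, genes past 1 were eligible to be named, at most 4 per comparison, of which most are named and others given as counts, and 1 target gene is not reported here by name; Ltbp3 was added after its values were seen. Of 178 listed genes, Krt85 had no row. Alternatives were pseudocounts of 0.1 and 0.01, an FPKM of at least 1, a fold of 1.5, TPM and median of ratios. In the others mitochondrial, or mitochondrial and skeletal muscle, genes were left out of the sum. Each library was then scaled so that this sum equalled its mean over the 4 libraries. Python 3.11.15, numpy 2.4.6, pandas 2.3.3, scipy 1.17.1 and matplotlib 3.10.9 were used.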

Additional observations from a re-analysis of the deposited data

How the results depend on the processing

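With 1 library per group, none of the differences can be set against a spread between mice, and no library could be left out. No paired analysis was possible because each group had 1 library and no test was run. Between ages in telogen the count stayed at 1 under all 8 alternatives, and the median of 0.16 ranged from 0.16 to 0.36 under the 6 that give one. In anagen the count of 0 became 1 with a pseudocount of 0.01 and in TPM and 2 at a fold of 1.5. The median of 0.06 became -0.16 in TPM, -0.09 without mitochondrial genes and -0.09 without mitochondrial and skeletal muscle genes. Between phases in young mice the count of 4 became 2 in TPM and 3 without mitochondrial genes. The median of -0.36 became 0.41 in TPM and -0.17 without mitochondrial genes. In old mice the count of 3 became 2 in TPM and 4 with a pseudocount of 0.01 and at a fold of 1.5, and the median of -0.41 became -0.75 and -0.77 with pseudocounts of 0.1 and 0.01, -0.12 in TPM, -0.58 without mitochondrial genes and -0.68 without mitochondrial and skeletal muscle genes. The cause of these shifts was not tested. The sign held in all 6 scaling and pseudocount alternatives for 7 of 9 genes between ages in each phase and for 6 of 9 between phases at each age. Calls over all genes in telogen were 287 higher and 333 lower as deposited, 490 and 186 without mitochondrial genes; in anagen they were 128 and 80, against 104 and 175 in TPM. Between phases in young mice they were 2829 and 2938, against 5891 and 1274 in TPM, and in old mice 2854 and 2759, against 4923 and 1502.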
